A study of Mus musculus with 12 samples.

Results

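The genes described here encode enzymes and regulators of cholesterol and fatty acid synthesis, together with a pair of genes for sterol transport and efflux. They were the 30 genes whose symbol in the deposited gene table equalled a name on a list of pathway members, 30 of 54833 genes. All 30 were among the 21495 genes that passed a filter on low counts and were tested. By role they were 3 regulators, 7 genes of the mevalonate and isoprenoid steps, 11 genes of the steps from squalene to cholesterol, 7 genes of fatty acid synthesis and desaturation, and 2 genes of sterol transport and efflux.

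The study compared how the brain of young and aged mice responds to intracerebral hemorrhage (ICH) by bulk RNA sequencing. The 12 samples formed 4 groups of 3, and each sample was RNA from the pooled tissue of several mice, which means that replicate values vary from pool to pool and not from mouse to mouse. The tissue was the perihematomal part of the caudate putamen on the injected side, taken 24 h after surgery. All mice were wild-type male C57BL/6. The young sham mice were 8 to 10 weeks old and received saline in the basal ganglia, and the young ICH mice of the same age received type IV collagenase, which breaks down the vessel wall and causes bleeding. The aged sham mice were 20 to 22 months old and received saline, and the aged ICH mice of that age received collagenase. Total counts were 37785160, 33074653 and 31490195 in young sham 1, 2 and 3. They were 33943437, 29861058 and 30659896 in young ICH 1, 2 and 3. Aged sham 1, 2 and 3 held 30932079, 30176744 and 33427245 counts. Aged ICH 1, 2 and 3 held 34657968, 28410896 and 30822637 counts.

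Cells make cholesterol from acetyl-CoA through mevalonate, isoprenoid units and squalene, and the transcription factor SREBP-2 raises the genes of this route when sterol in the endoplasmic reticulum is low. SREBP-1, a related factor, acts mainly on genes of fatty acid synthesis, while INSIG proteins hold both factors back in the endoplasmic reticulum. The brain makes nearly all of its own cholesterol behind the blood-brain barrier, oligodendrocytes use much of it for myelin, and astrocytes supply neurons.

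The labelled tissue was checked with 9 genes of striatal projection neurons. All 9 had counts in every sample. Drd1, the dopamine D1 receptor, stood at 126, 85.5 and 71.1 CPM (a gene's counts relative to a library size scaled with TMM factors) in young sham, at 51.4, 18.2 and 77.4 in young ICH, at 111, 128 and 65.8 in aged sham, and at 14.1, 92.9 and 37.3 in aged ICH. The sum of the 9 genes was 3024, 1881 and 1774 CPM in young sham, 1235, 513 and 1725 in young ICH, 2338, 2640 and 1513 in aged sham, and 325, 1912 and 741 in aged ICH. The lowest sums were those of aged ICH 1 and young ICH 2, and aged ICH 2 lay within the range of the aged sham samples. In bulk tissue, fewer cells of a type and less RNA per cell cannot be told apart.

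In young mice, 8 of the 30 genes were higher after ICH and 1 was lower, against 9.77% of all tested genes called higher and 9.13% called lower. A gene was called at a Benjamini-Hochberg adjusted P under 0.05 over all 21495 genes in edgeR's quasi-likelihood test. The 8 were Mvk, Acat2, Idi1, Fdps, Msmo1, Tm7sf2, Sqle and Fasn, and the lower gene was Srebf2. Of the 30 genes, 27 had a log2 fold change above 0 and the median was 0.17, while 52.7% of all tested genes lay above 0 with a median of 0.022. The study's own criterion was a fold change above 1.5 or below 0.67 with an unadjusted P under 0.05, set on DESeq2 results. Applied here to the edgeR values, it gave 1 higher gene (Fdps) and 0 lower, against 8.48% and 3.41% of all tested genes. At an unadjusted P under 0.05 alone, edgeR gave 14 of the 30 genes higher and 1 lower. Of all 21495 tested genes, 7077 reached that P in either direction. DESeq2 called 8 higher and 1 lower, against 2255 and 2462 of the 21315 genes to which it gave an adjusted P. In 15 of the 30 genes every ICH sample lay above every sham sample, against 18.5% of all tested genes, and in 1 gene every ICH sample lay below, against 16.5%.

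In aged mice, 10 of the 30 genes were higher after ICH and 0 were lower in edgeR, against 6.83% and 6.14% of all tested genes. The 10 were Mvk, Acat2, Idi1, Pmvk, Msmo1, Tm7sf2, Sqle, Cyp51, Ebp and Insig1. Above 0 lay 22 of the 30 log2 fold changes, with a median of 0.25, while 50.3% of all tested genes lay above 0 with a median of 0.0018. Under the fold criterion 1 gene was higher (Fdps) and 0 were lower, against 7.04% and 2.71% of all tested genes. At an unadjusted P under 0.05 edgeR gave 17 higher and 1 lower, while 6137 of all 21495 tested genes reached that P in either direction. DESeq2 called 11 higher and 1 lower, Srebf2, against 1774 and 1873 of the 18995 genes to which it gave an adjusted P. The groups did not overlap in 11 genes higher after ICH and 2 lower, against 17.8% and 17.3% of all tested genes. Acat2, Idi1, Msmo1, Mvk, Sqle and Tm7sf2 were called higher at both ages. In edgeR, 17 of the 30 genes were called in none of the comparisons, although DESeq2 called Mvd, which is among these 17, higher in aged mice.

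The rise lay in the sterol genes. Among the 18 genes of the mevalonate and squalene steps, 7 were called higher in young and 9 in aged mice, and all 18 had a log2 fold change above 0 at both ages, with medians of 0.23 and 0.31. Those signs held under TMM, upper quartile, DESeq2 and library-size scaling. With library sizes alone the median over all tested genes moved from 0.022 to 0.11 in young and from 0.0018 to 0.072 in aged mice, and the medians of the 18 genes were then 0.32 and 0.38. The log2 fold changes of the 18 genes also stayed above 0 without each of the 12 libraries, except for 1 gene in young mice without young ICH 1. Summed over the 18 genes, the level was 889, 866 and 944 CPM in young sham and 1031, 1104 and 1049 in young ICH. In aged mice the sum was 879, 838 and 939 CPM in sham and 1130, 945 and 1111 in ICH. Neither age showed overlap between ICH and sham, although aged ICH 2 was close to aged sham 3.

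**Figure D1:**
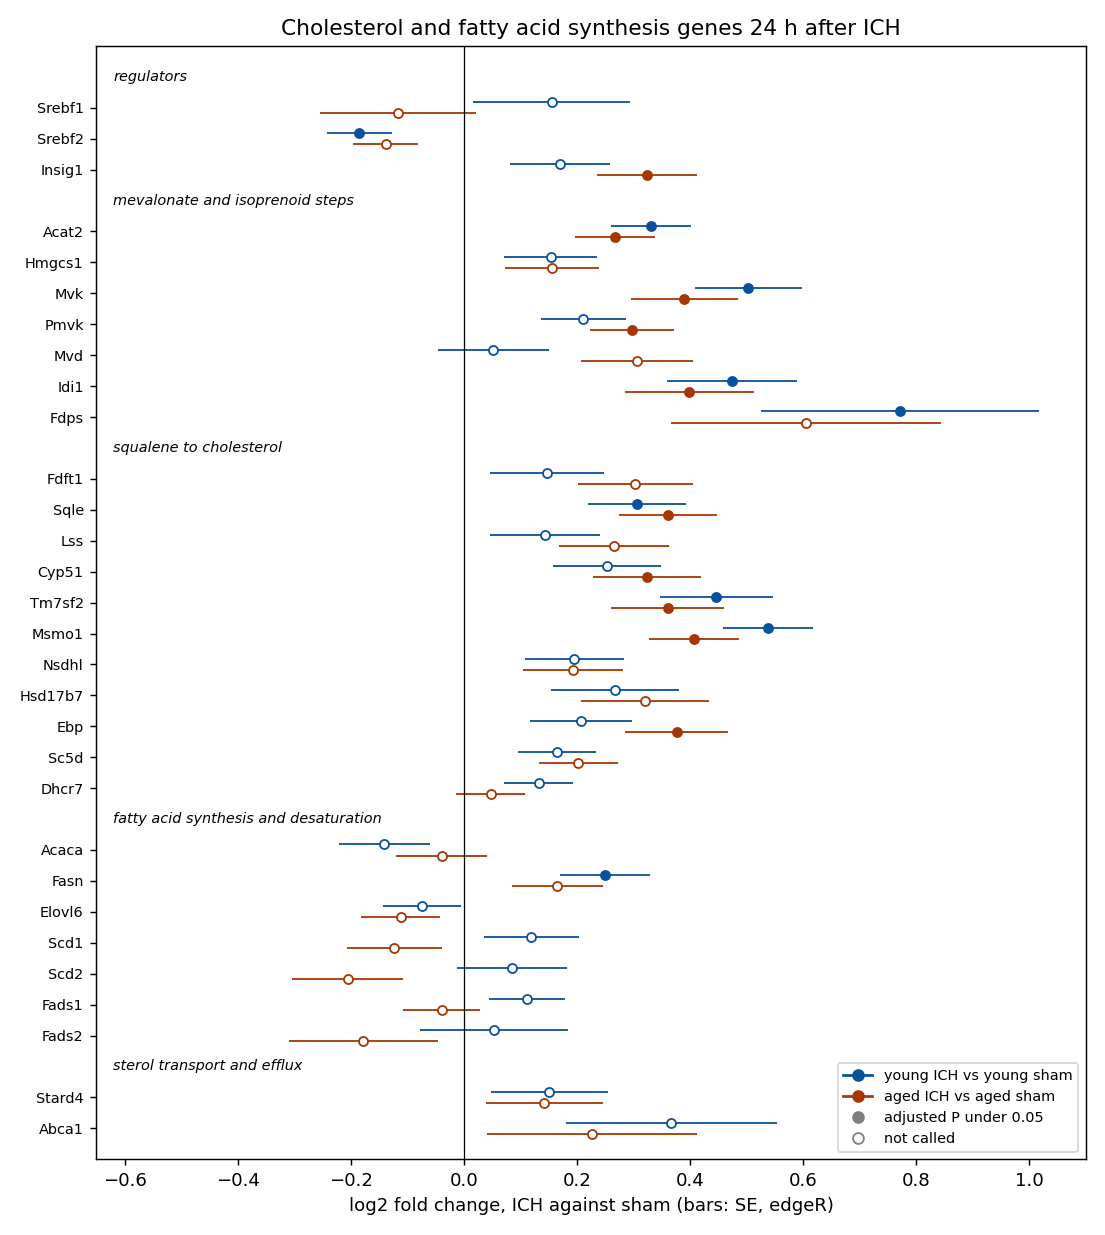
Log2 fold change (ICH against sham) of the 30 genes, ordered by role, in young and aged mice, with bars for the standard error and filled points for genes called in edgeR. All 18 genes of the mevalonate and squalene steps lie above 0 at both ages, while the genes of fatty acid synthesis and desaturation lie on both sides of 0 in young and in aged mice.

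Among the regulators, Srebf2, which encodes SREBP-2, was lower after ICH in young mice. It stood at 245, 246 and 251 CPM in young sham and at 209, 231 and 212 in young ICH. Aged sham had 250.2, 242 and 246 CPM, and aged ICH had 231, 216 and 223. Every ICH sample lay below every sham sample of its age. The log2 fold change was −0.18 ± 0.057 (SE) in young mice (edgeR adjusted P 0.0425) and −0.14 ± 0.057 in aged mice (edgeR adjusted P 0.134), and their difference was 0.046 ± 0.081 (unadjusted P 0.579). The call in young mice was kept when young ICH 2 was left out and was lost in edgeR without each of the other 11 libraries in turn, with adjusted P between 0.0505 and 0.118. It was also lost in edgeR with upper quartile factors (adjusted P 0.0901), library sizes alone (0.229), no filter on low counts (0.114) and only the groups compared (0.136). A fit blocked on the replicate number lost it too, while DESeq2 kept it (adjusted P 0.00393).

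Insig1, which retains the SREBPs in the endoplasmic reticulum and is itself a target of SREBP-2, rose in aged mice. It had 67.5, 63.3 and 77.9 CPM in young sham, 79.6, 81.7 and 73.3 in young ICH, 70.9, 74.3 and 75.4 in aged sham, and 97.2, 81.5 and 97.4 in aged ICH. The aged groups did not overlap, and aged ICH 1 and 3 were the highest of all samples, while the young groups overlapped. The log2 fold change was 0.32 ± 0.088 in aged mice (edgeR adjusted P 0.0336) and 0.17 ± 0.089 in young mice (edgeR adjusted P 0.206). The difference between the ages, 0.15 ± 0.12, had an unadjusted P of 0.241. The call was lost without aged sham 1, 2 or 3 or aged ICH 1 or 3, with edgeR adjusted P between 0.0614 and 0.136.

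Srebf1, which encodes SREBP-1, was called in neither age. Its level was 67.5, 51.0 and 50.9 CPM in young sham, 65.4, 53.6 and 69.8 in young ICH, 62.1, 81.9 and 78.0 in aged sham, and 70.4, 71.7 and 62.7 in aged ICH. Sham and ICH samples overlapped at both ages, and the log2 fold changes were 0.16 ± 0.14 and −0.12 ± 0.14.

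In the mevalonate and isoprenoid steps, 4 of 7 genes were called higher at each age, with median log2 fold changes of 0.33 in young and 0.31 in aged mice. Mvk encodes mevalonate kinase, which adds the first phosphate to mevalonate. It had 13.6, 13.9 and 13.2 CPM in young sham and 18.8, 20.1 and 18.8 in young ICH. The aged samples had 13.5, 16.3 and 14.9 CPM in sham and 20.7, 17.0 and 20.9 in ICH. The groups did not overlap at either age, and aged ICH 2 was the lowest ICH sample. Mvk rose by 0.50 ± 0.095 on the log2 scale in young mice (edgeR adjusted P 0.00481) and by 0.39 ± 0.095 in aged mice (edgeR adjusted P 0.0212). Without any 1 library the young call was kept, and the aged call was lost without aged sham 1 or 3 or aged ICH 1 or 3, with edgeR adjusted P between 0.0525 and 0.0979, and in a fit of only the groups compared (0.0503).

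Acat2 encodes the cytosolic thiolase that joins a pair of acetyl-CoA molecules. Its level was 32.4, 32.9 and 37.2 CPM in young sham, 45.6, 42.2 and 41.1 in young ICH, 35.5, 32.9 and 34.1 in aged sham, and 39.5, 40.8 and 43.2 in aged ICH. Every ICH sample lay above every sham sample of its age. It rose by 0.33 ± 0.071 in young mice (edgeR adjusted P 0.00848) and by 0.27 ± 0.071 in aged mice (edgeR adjusted P 0.0297). The young call was kept without any 1 library, and the aged call was lost without aged sham 1, 2 or 3 or aged ICH 1 or 3, with edgeR adjusted P between 0.0610 and 0.111, and with no filter on low counts (0.0506). Of the 100-base windows of its transcripts, 28.9% also occur in its neighbour Acat3, so how the counting divided reads between both genes could affect these values.

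Idi1 encodes isopentenyl diphosphate isomerase, which interconverts the isoprenoid units. It had 21.4, 18.6 and 21.0 CPM in young sham, 26.1, 30.5 and 28.3 in young ICH, 20.9, 19.6 and 25.9 in aged sham, and 29.97, 25.7 and 32.0 in aged ICH. The young groups were apart, and in aged mice only ICH 2 fell below a sham sample, aged sham 3. The rise was 0.47 ± 0.12 in young (edgeR adjusted P 0.0148) and 0.40 ± 0.11 in aged mice (edgeR adjusted P 0.0407). Leaving out young sham 2 ended the young call (edgeR adjusted P 0.0711). The aged call was lost without young sham 1 or 3, aged sham 1 or 2, or aged ICH 1 or 3, with edgeR adjusted P up to 0.146, and in a fit of only the groups compared (0.0699). For Idi1, 21.9% of windows occur in another gene.

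Hmgcs1, the cytosolic HMG-CoA synthase, was the most abundant gene of this role at 59.7 ± 6.25 FPKM (SD over the 12 samples; FPKM are counts per gene length and depth). Its level was 261, 254 and 278 CPM in young sham, 284, 304 and 295 in young ICH, 258, 239 and 267 in aged sham, and 303, 247 and 300 in aged ICH. ICH samples lay above sham samples in young mice, and aged ICH 2 lay within the aged sham range. It was not called, with log2 fold changes of 0.15 ± 0.083 (edgeR adjusted P 0.219) and 0.16 ± 0.083 (edgeR adjusted P 0.239). Some 12.1% of its exon bases lie within Gm48342 and 8.2% of its windows occur in another gene, so its values are uncertain.

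Of the other genes of these steps, Pmvk, phosphomevalonate kinase, averaged 25.5 ± 0.633 CPM (SD, n = 3) in young sham and 29.5 ± 2.33 in young ICH, and 24.5 ± 1.77 in aged sham and 30.1 ± 1.09 in aged ICH. It rose in aged mice by 0.30 ± 0.075 (edgeR adjusted P 0.024), while the young value was 0.21 ± 0.075 (edgeR adjusted P 0.0682) and the difference between the ages was 0.086 ± 0.11 (unadjusted P 0.433). The aged call was lost without aged sham 1 or 2 or aged ICH 1 or 3, with edgeR adjusted P between 0.0520 and 0.105. Fdps, farnesyl diphosphate synthase, was read by few counts, from 33 in young sham 3 to 122 in aged ICH 3, and was the least abundant of the 30 genes at 0.546 ± 0.196 FPKM. Its mean was 1.43 ± 0.424 CPM in young sham, 2.46 ± 0.439 in young ICH, 2.07 ± 0.388 in aged sham and 3.16 ± 0.600 in aged ICH. The rise in young mice was 0.77 ± 0.25 (edgeR adjusted P 0.0469), the aged value was 0.61 ± 0.24 (edgeR adjusted P 0.116), and the difference was −0.16 ± 0.34 (unadjusted P 0.638). Its young call was kept without young sham 1 and lost without each of the other 11 libraries, with edgeR adjusted P between 0.0502 and 0.153. That call was also lost with no filter on low counts (0.0512), only the groups compared (0.0943) and a fit blocked on the replicate number. For Fdps, 26.7% of exon bases lie within another gene. Mvd, mevalonate diphosphate decarboxylase, was called in neither age in edgeR (0.052 ± 0.098 and 0.31 ± 0.099, aged edgeR adjusted P 0.0616). DESeq2 called Mvd higher in aged mice (DESeq2 adjusted P 0.0485).

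In the steps from squalene to cholesterol, 3 of 11 genes were called higher in young and 5 in aged mice, with median log2 fold changes of 0.21 and 0.32. Msmo1 encodes the oxidase that removes methyl groups at C-4 of the sterol ring. It had 73.6, 67.9 and 74.6 CPM in young sham, 102, 104 and 108 in young ICH, 76.7, 73.1 and 83.6 in aged sham, and 112, 91.0 and 107 in aged ICH. The groups were apart at both ages. The increase of 0.54 ± 0.080 in young mice (edgeR adjusted P 0.00183) and of 0.41 ± 0.080 in aged mice (edgeR adjusted P 0.00966) had the smallest adjusted P of the 30 genes at each age. The young call was kept without any 1 library, and the aged call was lost only without aged ICH 1 (edgeR adjusted P 0.0514).

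Tm7sf2, a sterol C-14 reductase, stood at 18.1, 20.1 and 20.2 CPM in young sham, 24.6, 31.1 and 23.9 in young ICH, 18.9, 19.1 and 19.5 in aged sham, and 25.2, 22.6 and 26.1 in aged ICH. Young ICH 2 was the highest sample and no ICH sample reached down to sham. The rise was 0.45 ± 0.10 in young (edgeR adjusted P 0.0102) and 0.36 ± 0.10 in aged mice (edgeR adjusted P 0.0352). The aged call was lost without aged sham 1, 2 or 3 or aged ICH 1 or 3, with edgeR adjusted P between 0.0700 and 0.120, while the young call was kept without any 1 library. A fit blocked on the replicate number also lost the aged call. Some 12.1% of its exon bases lie within Vps51.

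Sqle encodes squalene epoxidase, a rate-limiting enzyme of the route. It had 53.6, 50.8 and 55.3 CPM in young sham, 61.2, 70.0 and 66.4 in young ICH, 54.5, 52.2 and 61.1 in aged sham, and 77.8, 63.6 and 74.2 in aged ICH. ICH samples lay above sham samples at both ages, by the smallest margin for aged ICH 2. The rise was 0.31 ± 0.086 in young (edgeR adjusted P 0.0286) and 0.36 ± 0.086 in aged mice (edgeR adjusted P 0.0196). The young call was lost without young sham 1, 2 or 3 or young ICH 2 or 3, with edgeR adjusted P between 0.0529 and 0.112. The aged call was lost without aged sham 1 or 2 or aged ICH 1 or 3, with edgeR adjusted P between 0.0709 and 0.0964.

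Fdft1, squalene synthase, was the most abundant gene of this role at 22.4 ± 3.20 FPKM. It had 88.1, 80.0 and 98.1 CPM in young sham, 99.7, 103 and 92.6 in young ICH, 88.2, 78.9 and 90.1 in aged sham, and 111, 89.8 and 116 in aged ICH. Groups overlapped at both ages, and the log2 fold changes were 0.15 ± 0.10 (edgeR adjusted P 0.343) and 0.30 ± 0.10 (edgeR adjusted P 0.07). Reads from the overlapping gene Ctsb, which covers 18.3% of its exon bases, could not be set apart.

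Cyp51, lanosterol demethylase, averaged 68.5 ± 6.93 CPM in young sham, 81.6 ± 5.68 in young ICH, 62.7 ± 5.26 in aged sham and 78.5 ± 7.67 in aged ICH. Ebp, which shifts a double bond in the sterol ring, lay between 12.97 and 15.6 CPM in young sham, 15.4 and 16.7 in young ICH, 11.4 and 12.3 in aged sham, and 15.03 and 16.6 in aged ICH. Both rose in aged mice, Cyp51 by 0.32 ± 0.096 (edgeR adjusted P 0.0438) and Ebp by 0.38 ± 0.091 (edgeR adjusted P 0.02). The young values were 0.25 ± 0.095 for Cyp51 and 0.21 ± 0.090 for Ebp, and the differences between the ages had unadjusted P of 0.603 and 0.209. The aged call of Cyp51 was lost without young sham 1, aged sham 1 or 2, or aged ICH 1 or 3, with edgeR adjusted P up to 0.184. That of Ebp was lost without aged sham 1 or 2 or aged ICH 1 or 3, with edgeR adjusted P up to 0.0822. The uncalled genes of this role were Lss, Nsdhl, Hsd17b7, Sc5d and Dhcr7, besides Fdft1, with log2 fold changes from 0.13 (Dhcr7) to 0.27 (Hsd17b7) in young mice and from 0.047 (Dhcr7) to 0.32 (Hsd17b7) in aged mice.

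**Figure D2:**
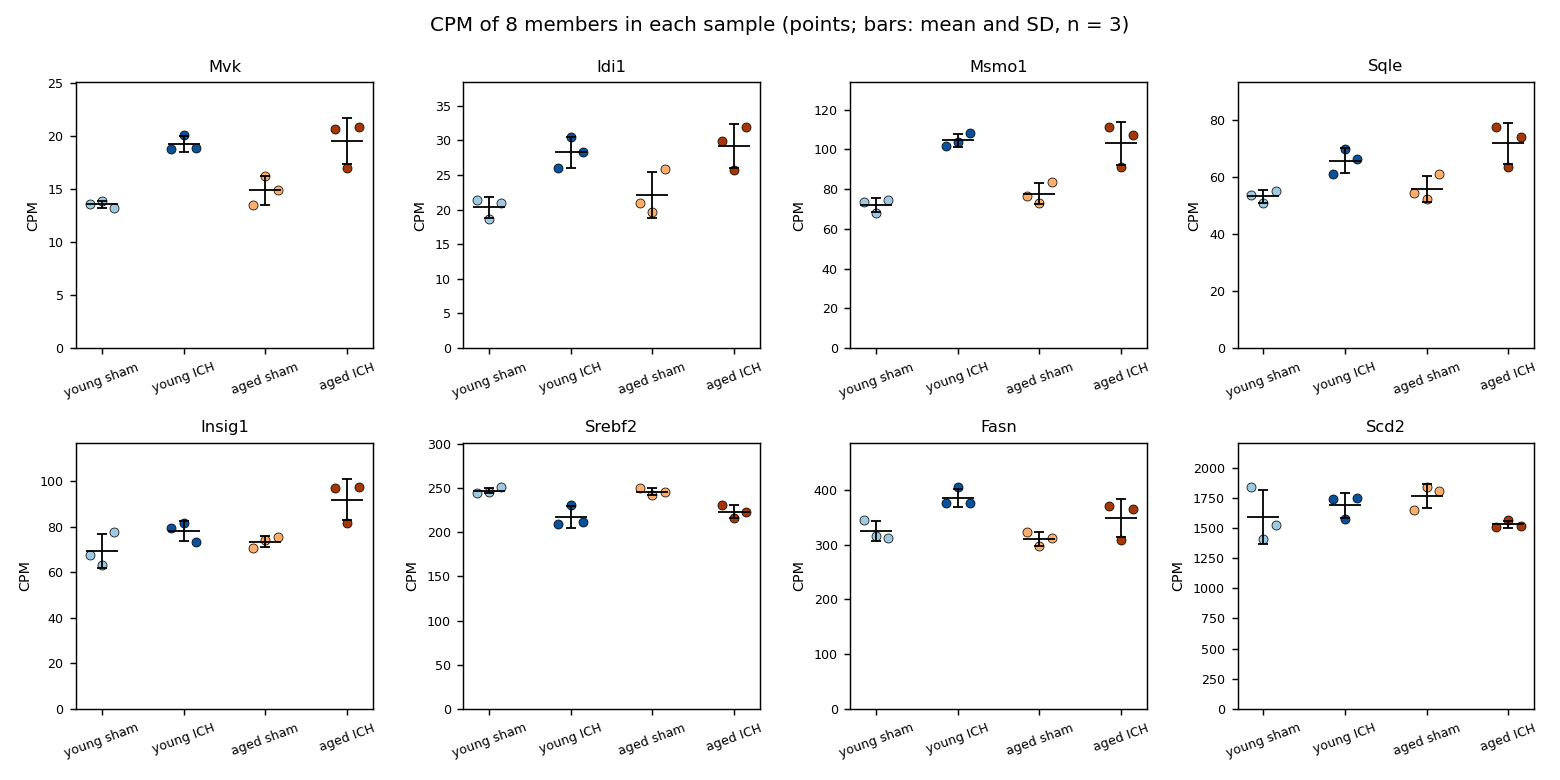
CPM in each of the 12 samples for Mvk, Idi1, Msmo1, Sqle, Insig1, Srebf2, Fasn and Scd2, with a bar for the group mean. Msmo1 was 67.9 to 74.6 in young sham and 102 to 108 in young ICH, while Scd2 overlapped between young sham and young ICH.

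In fatty acid synthesis and desaturation, 1 of 7 genes was called higher in young mice and 0 in aged mice in edgeR, where 0 had an unadjusted P under 0.05 and DESeq2 also called 0. The median log2 fold changes were 0.085 and −0.11, and the signs of Elovl6 in young mice and of Acaca and Fads1 in aged mice turned with library sizes alone. Fasn encodes fatty acid synthase, which builds palmitate. It had 345, 315 and 313 CPM in young sham, 376, 404 and 376 in young ICH, 323, 297 and 312 in aged sham, and 371, 308 and 365 in aged ICH. The young groups were apart, and aged ICH 2 lay within the aged sham range. Fasn rose by 0.25 ± 0.080 in young mice (edgeR adjusted P 0.0476), the aged value was 0.17 ± 0.080 (edgeR adjusted P 0.197), and the difference was −0.084 ± 0.11 (unadjusted P 0.472). The young call was kept without young sham 1 or aged ICH 2 and lost without each of the other 10 libraries, with edgeR adjusted P between 0.0535 and 0.153. That call was also lost with no filter on low counts (0.0546), only the groups compared (0.0799) and a fit blocked on the replicate number.

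Scd2, a stearoyl-CoA desaturase of brain that introduces a double bond into saturated fatty acids, was the most abundant of the 30 genes at 301 ± 27.5 FPKM. It stood at 1838, 1410 and 1529 CPM in young sham, 1740, 1572 and 1753 in young ICH, 1650, 1838 and 1808 in aged sham, and 1512, 1564 and 1516 in aged ICH. Aged ICH samples lay below aged sham samples, while the young groups overlapped. It was not called, at 0.085 ± 0.098 in young (edgeR adjusted P 0.588) and −0.21 ± 0.098 in aged mice (edgeR adjusted P 0.189). The difference between the ages, −0.29 ± 0.14, was the lowest of the 30 genes and had an unadjusted P of 0.0567.

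Acaca, acetyl-CoA carboxylase 1, which makes malonyl-CoA, had 80.9, 92.8 and 85.8 CPM in young sham, 76.9, 82.3 and 76.1 in young ICH, 79.0, 77.2 and 88.5 in aged sham, and 87.7, 76.9 and 73.5 in aged ICH. The groups overlapped at both ages, with log2 fold changes of −0.14 ± 0.081 and −0.039 ± 0.081, and 23.7% of its windows occur in another gene. The uncalled Scd1, Fads1, Fads2 and Elovl6 ranged from −0.074 (Elovl6) to 0.12 (Scd1) in young mice and from −0.18 (Fads2) to −0.039 (Fads1) in aged mice. Fads1, the Δ5 desaturase, and Fads2, the Δ6 desaturase, were among the 5 most abundant of the 30 genes, at 60.1 ± 4.69 and 47.95 ± 6.498 FPKM, and so was Scd1 at 59.3 ± 5.04 FPKM.

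In sterol transport and efflux, 0 of 2 genes were called at either age in edgeR, 0 had an unadjusted P under 0.05, and DESeq2 called 0. Abca1, which moves cholesterol out of cells and is a target of liver X receptors, had 56.4, 63.3 and 45.7 CPM in young sham, 65.0, 60.0 and 88.4 in young ICH, 56.3, 57.8 and 77.7 in aged sham, and 79.0, 83.4 and 62.2 in aged ICH. Stard4, which carries cholesterol between membranes, had 39.0, 41.3 and 43.2 CPM in young sham, 47.4, 48.6 and 41.2 in young ICH, 49.2, 45.7 and 50.4 in aged sham, and 55.8, 44.3 and 60.1 in aged ICH. ICH and sham overlapped for both genes at both ages. The log2 fold changes of Abca1 were 0.37 ± 0.19 and 0.23 ± 0.19, and those of Stard4 were 0.15 ± 0.10 and 0.14 ± 0.10.

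Between the ages, 0 of the 30 genes were called in sham mice by edgeR, against 0.102% of all tested genes, and 0 met the fold criterion, against 3.59%. At an unadjusted P under 0.05, 2 were higher in aged sham (Srebf1 and Stard4) and 1 was lower (Ebp). Of all 21495 tested genes, 2609 reached that P in either direction. DESeq2 called 0, against 145 higher and 137 lower of the 17451 genes to which it gave an adjusted P. Srebf1 differed by 0.39 ± 0.14 (edgeR adjusted P 0.305), Stard4 by 0.23 ± 0.10 (edgeR adjusted P 0.395) and Ebp by −0.21 ± 0.091 (edgeR adjusted P 0.376). The median over the 30 genes was −0.036, against 0.0089 over all tested genes. In ICH mice edgeR also called 0 of 30, against 0.0465%, with 0 under the fold criterion, against 3.43%. There, 2 genes were higher in aged mice (Insig1 and Lss) and 3 lower (Dhcr7, Fads1 and Fads2) at an unadjusted P under 0.05. Of all 21495 tested genes, 2022 reached that P in either direction. DESeq2 called 0, against 86 higher and 103 lower of 22088 genes. The smallest unadjusted P was that of Dhcr7 (−0.20 ± 0.061, edgeR adjusted P 0.335), and the median was −0.017, against −0.0046 over all tested genes. Each comparison shares samples with others, so their values are given side by side and were not correlated.

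The interaction of age and ICH, the aged response minus the young response, was called in 0 of 30 genes by edgeR, against 0.0% of all tested genes. At an unadjusted P under 0.05 it gave 0 of the 30, against 585 of all tested genes, and 0 of 30 met the fold criterion, against 1.47%. DESeq2 called 0 of the 30. The values ran from −0.29 ± 0.14 (Scd2) to 0.25 ± 0.14 (Mvd), with a median of −0.023, against −0.0051 over all tested genes. So the genes called at 1 age were not shown to differ between the ages.

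Among 8 other genes of sterol synthesis, 3 were called higher in young mice and 2 in aged mice. Lbr, a sterol C-14 reductase like Tm7sf2, rose at both ages (0.43 ± 0.066 and 0.25 ± 0.065), as did Acat3, a thiolase gene beside Acat2 (1.12 ± 0.17 and 0.83 ± 0.17). The aged call of Lbr was lost without aged sham 1 or 2 or aged ICH 1 or 3, with edgeR adjusted P up to 0.112, and with no filter on low counts (0.123) or only the groups compared (0.0518). Of the exon bases of Acat3 23.5% lie within Tcp1, and of those of Lbr 10.7% lie within other genes, so their values are uncertain. Fdx1, a ferredoxin, rose in young mice (0.40 ± 0.11), a call lost without young sham 1 or 2 or young ICH 3 or with no filter on low counts or only the groups compared (edgeR adjusted P up to 0.0766), and stood at 0.26 ± 0.10 in aged mice, with an interaction P of 0.389.

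Among 14 genes of SREBP processing and sterol uptake, 1 was called higher and 3 lower in young mice, and 1 was called lower in aged mice. Mbtps1, the site-1 protease that releases SREBPs, fell at both ages (−0.26 ± 0.080 and −0.29 ± 0.080). Its young call was lost without young sham 1 or 2, young ICH 1 or 2, aged sham 1, 2 or 3, or aged ICH 3, with edgeR adjusted P up to 0.14, and its aged call without aged sham 1 or 2 or aged ICH 1 or 3, up to 0.137. With library sizes alone its adjusted P was 0.164 and 0.0967, and in young mice it was 0.0521 with upper quartile factors and 0.106 with only the groups compared. Mbtps2, the site-2 protease, fell in young mice (−0.38 ± 0.061), stood at −0.17 ± 0.061 in aged mice, and differed by 0.21 ± 0.086 (unadjusted P 0.0292), and 28.4% of its exon bases lie within Yy2. Npc1, which exports cholesterol from lysosomes, was not called in edgeR (−0.20 ± 0.11 and −0.34 ± 0.11). The remaining calls in young mice were Npc2, a lysosomal cholesterol carrier (0.45 ± 0.14), and Insig2 (−0.21 ± 0.065), named after their values were seen. The young call of Npc2 was kept only without young ICH 2 and that of Insig2 only without young ICH 3, with edgeR adjusted P up to 0.156 and 0.133 in the other fits without 1 library. Both calls were also lost with no filter on low counts and with only the groups compared, and that of Insig2 with upper quartile factors and library sizes alone, with edgeR adjusted P from 0.0621 to 0.242. In aged mice the values were 0.37 ± 0.14 for Npc2 and −0.17 ± 0.066 for Insig2, and the interaction P was 0.695 for Npc2 and 0.643 for Insig2.

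Among 21 other genes of fatty acid synthesis, 2 were called higher in young mice, and 2 higher and 1 lower in aged mice, with medians of 0.079 and −0.046. Elovl1, which elongates very long saturated fatty acids, rose at both ages (0.37 ± 0.089 and 0.46 ± 0.089), and its young call was lost without young sham 2 or young ICH 3 or with only the groups compared (edgeR adjusted P up to 0.0699). Thrsp, a regulator of lipogenesis, rose in young mice (0.62 ± 0.18), stood at −0.14 ± 0.18 in aged mice, and differed by −0.75 ± 0.25 (unadjusted P 0.011). Its call was lost without young sham 1 or 2 or any of the 3 young ICH libraries, with edgeR adjusted P up to 0.0909. Fads3 rose in aged mice (0.45 ± 0.13, against 0.21 ± 0.13 in young, interaction P 0.208), a call lost without young sham 2, any of the 3 aged sham libraries, or aged ICH 1 or 3, with edgeR adjusted P up to 0.164. Hacd3, a dehydratase of fatty acid elongation, fell in aged mice (−0.26 ± 0.053, against −0.16 ± 0.053 in young, interaction P 0.198), a call lost without aged ICH 1 or 3 (edgeR adjusted P up to 0.0511).

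Among 18 genes of liver X receptor targets, efflux, esterification and oxysterols, 4 were called higher and 1 lower in young mice, and 3 higher and 1 lower in aged mice, with medians of 0.095 and 0.052. Plin2, which coats lipid droplets, had 6.05, 6.09 and 6.30 CPM in young sham, 21.3, 23.6 and 32.7 in young ICH, 9.04, 7.76 and 10.9 in aged sham, and 30.1, 20.2 and 31.1 in aged ICH. ICH and sham samples did not overlap at either age, and it rose by 2.07 ± 0.20 (edgeR adjusted P 0.000466) and 1.56 ± 0.20 (edgeR adjusted P 0.00273). Cyp7b1, an oxysterol hydroxylase, rose at both ages (0.91 ± 0.13 and 0.60 ± 0.13), as did Nr1h3, which encodes LXRα (0.75 ± 0.15 and 0.62 ± 0.15). The aged call of Cyp7b1 was lost without aged sham 1 or aged ICH 1 (edgeR adjusted P up to 0.0601), and that of Nr1h3 without aged sham 1 or 2 or aged ICH 1 or 3 (edgeR adjusted P up to 0.0799). Ch25h, cholesterol 25-hydroxylase, rose in young mice (2.08 ± 0.51), a call lost without young sham 1 or 2 or young ICH 3 or with no filter on low counts (edgeR adjusted P up to 0.0817), and stood at 1.63 ± 0.49 in aged mice, with an interaction P of 0.524. Abcg1, an efflux transporter named after its values were seen, fell at both ages (−0.29 ± 0.081 and −0.30 ± 0.081). Its young call was lost without young sham 1 or 2 or young ICH 2 or 3 (edgeR adjusted P up to 0.0982) and its aged call without aged sham 1 or 2 or aged ICH 1 or 2 (edgeR adjusted P up to 0.147), and both calls were lost with library sizes alone and with only the groups compared (edgeR adjusted P from 0.0532 to 0.0846). Apoe, the main lipid carrier of brain, was the most abundant of the list at 408 FPKM and was not called (0.086 ± 0.15 and −0.19 ± 0.15).

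Levels of marker genes of cell types are given beside the sterol genes. Of the 9 striatal projection neuron genes 0 were called in edgeR or DESeq2 at either age, and at an unadjusted P under 0.05 edgeR gave 0 in young and 1 in aged mice, yet all 9 had log2 fold changes below 0, with medians of −0.95 and −1.13, and Pde10a was the most abundant. Within young ICH, sample 2 had the highest sterol sum and the lowest striatal sum, and within aged ICH, sample 2 had the lowest sterol sum and the highest striatal sum. With the striatal sum as a covariate, a fit chosen after seeing the data, 4 of the 8 young calls were kept (Acat2, Msmo1, Mvk and Tm7sf2) and 0 of the 10 aged calls, although the log2 fold changes behind all 18 calls stayed above 0. Of the 18 sterol genes, 16 in young and 17 in aged mice then lay above 0, with medians of 0.17 and 0.20. There, the edgeR adjusted P of Msmo1 was 0.00475 in young and 0.0681 in aged mice. Over all tested genes that fit called 1689 higher and 1973 lower in young mice, and 475 higher and 598 lower in aged mice, against 2100 and 1962 and 1469 and 1319 without the covariate. In the same fit the lower genes in young mice were Srebf2 (−0.24, edgeR adjusted P 0.0214) and Acaca (−0.23, edgeR adjusted P 0.0494).

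Of 13 genes of myelinating oligodendrocytes, edgeR called 0 in young mice, with 2 lower at an unadjusted P under 0.05 and 2 lower in DESeq2. In aged mice 6 were called lower, and Mbp was the most abundant. The median log2 fold changes were −0.18 and −0.58. Their sum was 8969, 5264 and 7148 CPM in young sham, 7441, 6115 and 8079 in young ICH, 5749, 7387 and 7249 in aged sham, and 5204, 5340 and 4592 in aged ICH. Aged ICH samples lay below aged sham samples, and the young groups overlapped. With that sum as a covariate, also chosen after seeing the data, 7 of the 8 young calls and 2 of the 10 aged calls (Msmo1 and Pmvk) were kept in edgeR, and Srebf1 was called higher in aged sham than in young sham (0.42, edgeR adjusted P 0.0459). The sum over the 7 fatty acid genes was 2955, 2411 and 2524 CPM in young sham, 2865, 2697 and 2893 in young ICH, 2660, 2880 and 2857 in aged sham, and 2594, 2560 and 2517 in aged ICH. It was lower in every aged ICH sample than in any aged sham sample, like the myelin sum. Scd2, which was not called, was the most abundant of the 7 genes. It was also the only 1 of the 7 whose aged ICH samples all lay below aged sham. In aged mice 6 of the 7 had log2 fold changes below 0, and Fasn lay above (0.17).

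**Figure D3:**
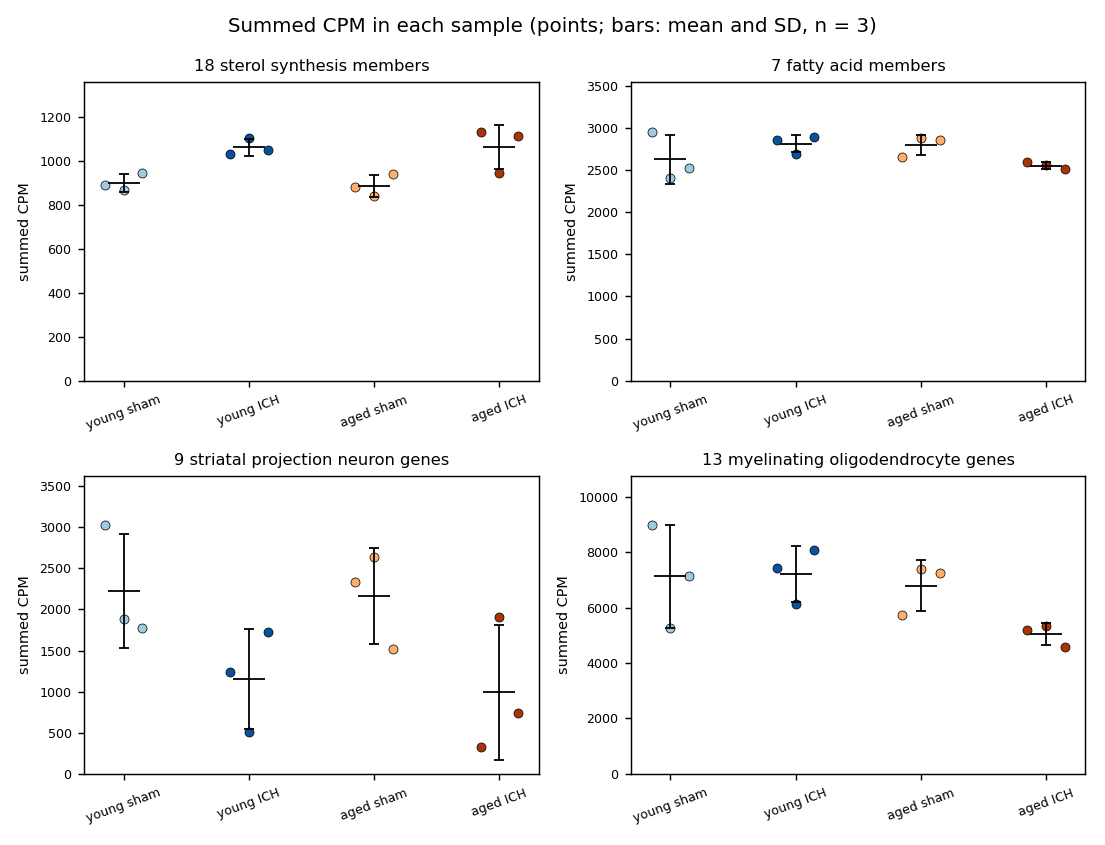
Summed CPM in each of the 12 samples over the 18 sterol genes, the 7 fatty acid genes, the 9 striatal projection neuron genes and the 13 myelinating oligodendrocyte genes. The sterol sums of ICH samples lie above those of sham samples at both ages, and the striatal sums of ICH samples reach down to 325.

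Of 7 oligodendrocyte progenitor genes, edgeR and DESeq2 called 0 in young mice, with 1 higher at an unadjusted P under 0.05, and edgeR called 1 lower in aged mice, with Olig1 the most abundant and sums of 318, 238 and 249 CPM in young sham, 297, 223 and 283 in young ICH, 202, 271 and 219 in aged sham, and 189, 199 and 165 in aged ICH. Of 10 astrocyte genes, 4 were higher in young mice, and 3 were higher and 1 lower in aged mice, with Slc1a2 the most abundant and sums of 5865, 6258 and 5917, then 6391, 6956 and 6966, then 6251, 5969 and 6717, then 6814, 6650 and 6432 CPM in the same order of groups. Of 10 general neuron genes, 2 were lower at each age, with Snap25 the most abundant and sums of 6987, 7809 and 7949, then 6217, 6095 and 4881, then 7321, 6854 and 6789, then 5554, 5296 and 5793 CPM. Neuron sums were lower in every ICH sample than in any sham sample of its age. Of 10 microglia and macrophage genes, 4 were higher and 1 lower at each age, with Csf1r the most abundant and sums of 275, 248 and 240.0, then 326, 289 and 363, then 279, 261 and 305, then 382, 359 and 350.2 CPM. Of 7 neutrophil genes, 6 were higher at each age, with Csf3r the most abundant and sums of 10.1, 12.5 and 10.2, then 19.7, 35.9 and 31.5, then 14.5, 15.5 and 24.9, then 51.5, 46.0 and 36.5 CPM, and Retnlg was at 0 in young sham 1 and 3. Both lists were higher in every ICH sample than in any sham sample of its age. Of 7 endothelial genes, 4 were higher in young and 3 in aged mice, with Flt1 the most abundant and sums of 307, 256 and 254, then 336, 347 and 356, then 289, 315 and 327, then 385, 320.0 and 323 CPM. Of 5 red blood cell genes, 3 were higher in young mice, and in aged mice 0 were called in edgeR or DESeq2, with 0 at an unadjusted P under 0.05 in edgeR, and with Hbb-bs the most abundant and sums of 5.20, 22.4 and 7.36, then 29.0, 121 and 52.2, then 39.5, 27.8 and 36.8, then 29.8, 24.3 and 82.0 CPM. The part of these cell types in the change of the sterol genes was not tested.

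Of 6 choroid plexus genes, 0 were called at either age in edgeR, with 0 at an unadjusted P under 0.05, DESeq2 called 0 in young and 1 higher in aged mice, and Ttr was the most abundant. Their sum was 488, 303 and 53.2 CPM in young sham, 55.0, 9.72 and 4071 in young ICH, 66.7, 55.8 and 88.1 in aged sham, and 1555, 1974 and 39.7 in aged ICH. Young ICH 3 and aged ICH 1 and 2 stood apart from the rest. Without these 3 libraries, left out after seeing the data, 6 of the 8 young calls and 1 of the 10 aged calls (Msmo1, edgeR adjusted P 0.042) were kept, with aged ICH 3 as the only aged ICH sample, which is assumed to vary like the other groups. Without the libraries with the lowest striatal sums, young ICH 2 and aged ICH 1, 4 young calls and 0 aged calls were kept.

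Promoter sequences of 23 of the 30 genes were matched by symbol in a RefSeq table of mouse build GRCm38.p6, and Sqle, Stard4, Fads1, Fdps, Fdft1, Scd1 and Scd2 had none. In the 250 bases before the start, the letters CCAAT, the core bound by the factor NF-Y that works with SREBPs, were searched on both strands, where the other strand reads ATTGG. They occurred in 18 of the 23 genes (78.3%), against 37.49% of 27025 genes with a promoter and 39.41% of the 13464 tested genes among them. They were found in 14 of 15 sterol genes and 1 of 4 fatty acid genes, and in 9 of 10 genes called higher at either age and 9 of the other 13. The letters GGGCGG, a GC box, occurred on either strand in 19 of the 23 genes (82.6%), against 35.36% of all genes and 57.76% of tested genes. The letters TCACNCCAC, 1 form of the sterol regulatory element, occurred in 1 of the 23 genes, Hmgcs1, against 1.22% of all genes. These motif searches describe letters in a window and not binding.

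The promoters of 4 genes are shown because they carry several of these letters and include genes that rose together. The CCAAT letters (or ATTGG) and the TCACNCCAC letters are in capitals, and each stretch is the 180 bases before the RefSeq start, read 5′ to 3′ on the strand of the gene. The Mvk stretch (chr5:114444089-114444268, plus strand) holds 5 CCAAT matches, and the Ebp stretch (chrX:8193513-8193692, minus strand) holds 2. The Hmgcs1 stretch (chr13:119690171-119690350, plus strand) holds 2 and the TCACNCCAC match. The Fasn stretch (chr11:120824548-120824727, minus strand) holds 3, of which the run CCAATTGG joins overlapping CCAAT and ATTGG.
Mvk: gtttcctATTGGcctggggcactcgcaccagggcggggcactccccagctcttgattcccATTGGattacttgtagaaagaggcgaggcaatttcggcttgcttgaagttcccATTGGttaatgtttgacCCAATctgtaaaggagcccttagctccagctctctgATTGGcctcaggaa
Ebp: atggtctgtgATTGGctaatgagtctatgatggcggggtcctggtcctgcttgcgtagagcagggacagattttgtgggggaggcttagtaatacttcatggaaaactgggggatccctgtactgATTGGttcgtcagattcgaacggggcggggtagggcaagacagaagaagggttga
Hmgcs1: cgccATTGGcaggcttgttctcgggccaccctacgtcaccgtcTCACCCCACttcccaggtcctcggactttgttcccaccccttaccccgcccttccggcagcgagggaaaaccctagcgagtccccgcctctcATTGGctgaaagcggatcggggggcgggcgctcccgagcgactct
Fasn: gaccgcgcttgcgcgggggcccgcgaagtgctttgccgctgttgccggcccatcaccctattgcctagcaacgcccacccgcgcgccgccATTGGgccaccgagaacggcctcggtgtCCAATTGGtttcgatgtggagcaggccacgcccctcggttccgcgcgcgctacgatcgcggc

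In the GENCODE vM21 annotation of GRCm38.p6, the 30 genes lie on 16 chromosomes. Chromosome 19 holds 5 of them, Fads1, Fads2, Scd1, Scd2 and Tm7sf2. Fads2 (chr19:10062765-10101746, minus strand) and Fads1 (chr19:10182888-10196877, plus strand) lie near each other, as do Scd2 (chr19:44293674-44306864, plus strand) and Scd1 (chr19:44394455-44407879, minus strand). Of the 5 only Tm7sf2 was called. In the 23 genes with under 5% of windows or exon bases shared with another gene, 4 were called higher and 1 lower in young mice, and 7 were called higher in aged mice.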

How the data were processed

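Total RNA from pooled brain tissue was sequenced in 12 samples of 4 groups, 3 per group. Per the submitters' processing notes, reads were handled with HISAT2, featureCounts and Subread on GRCm38.p6. The authors deposited whole-number counts per gene, used here as deposited, and FPKM per gene, which the authors scaled by gene length and depth. The strand setting and the treatment of reads mapping to several places are not given in the sources used here, so genes with overlapping exons or shared sequence have uncertain values.

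Counts were filtered with filterByExpr (minimum count 10), scaled with TMM factors and tested with the robust quasi-likelihood test of edgeR 4.0.16 (limma 3.58.1, R 4.3.3) in a model of 4 groups. The 5 comparisons were ICH against sham at each age, aged against young in sham and in ICH, and the interaction. P-values were adjusted over 21495 genes and the threshold was 0.05. Total counts ran from 28410896 to 37785160, and the number of samples, 3 per group, limits precision. Of 54833 genes, 14946 had no count. Levels are compared between samples in CPM and between genes in FPKM.

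The code was tested on simulated data. Alternatives were DESeq2 1.42.0, upper quartile factors, library sizes alone, no filter, only the groups compared, a replicate block, the fold criterion of the study, and leaving out each library. Fits with a striatal or myelin sum as covariate, without the libraries with the most Ttr, and without those with the lowest striatal sums were chosen after seeing the data.

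The genes and lists were chosen with earlier results of these data known. Values in every sample are given for the 3 genes of each role with the smallest unadjusted P in either comparison of ICH with sham and for the most abundant gene of each role by FPKM. From each of the other pathway lists the 4 genes with the smallest unadjusted P are named, besides Apoe, and some genes of these lists are not reported here. Gene positions came from GENCODE vM21 and promoter sequences from RefSeq. Exon overlap was computed from the annotation, and shared sequence from windows of 100 bases of the transcripts.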

Additional observations from a re-analysis of the deposited data

How the results depend on the processing

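Of the 30 genes, 8 were called higher in young mice after ICH. The number was 15 with library sizes alone, 1 under the fold criterion, 4 with the striatal sum as a covariate and 4 without the libraries with the lowest striatal sums, and 4 to 7 without each library in turn (4 without young sham 2, 5 without young ICH 2 or young ICH 3). The 1 gene called lower in young mice became 0 with upper quartile factors, library sizes alone, no filter, only the groups compared, the fold criterion, or the libraries with the most Ttr left out, 2 with the striatal covariate, and 0 to 1 without each library. In aged mice the 10 higher calls became 1 under the fold criterion, 1 without the Ttr libraries, 0 without the lowest striatal sums, 0 with the striatal covariate, 2 with the myelin covariate, and 0 to 15 without each library (1 without aged sham 1, 2 without aged sham 2, 6 without aged sham 3, 0 without aged ICH 1, 15 without aged ICH 2, 1 without aged ICH 3). The 0 lower calls in aged mice (edgeR, 1 at an unadjusted P under 0.05) became 1 in DESeq2. The 0 genes higher in aged than in young sham (edgeR, 2 at an unadjusted P under 0.05, DESeq2 0) became 1 with the myelin covariate. Fits without a library hold fewer samples, and the cause of the other moves was not tested. Over all tested genes, the young comparison gave 2100 higher and 1962 lower (3172 and 1115 with library sizes alone), and the aged comparison gave 1469 and 1319 (2086 and 746 with library sizes alone). The aged calls over all tested genes were 399 higher and 267 lower without aged ICH 1, 728 and 476 without aged ICH 3, 706 and 463 without aged sham 1, and 714 and 570 without aged sham 2, and the young calls were 973 and 910 without young sham 2, 1369 and 1283 without young sham 3, and 1286 and 1125 without young ICH 3. With the replicate block 6 genes were higher and 0 lower in young mice and 9 were higher in aged mice. The replicate numbers did not pair the samples: over 18 pairs with the same number the correlation of deviations ran from −0.454 to 0.235, 5 pairs were over 0.1, and 1 sample correlated best with its own number. The interaction could not be fitted with only the groups compared. No gene named here reversed its call. With 3 pools per group, small differences may have been missed.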
